A study of Mus musculus with 12 samples.

Results

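The 78 genes described here are named for the protein subunits of the mitochondrial ribosome that they encode. They were chosen by name, as every row of the count table whose symbol is Mrpl or Mrps followed by digits and at most 1 letter, without the pseudogene suffix -ps. This gave 78 of the 53465 genes in the table, 49 of the large subunit (Mrpl) and 29 of the small subunit (Mrps), spread over 17 chromosomes. The samples were mouse bone marrow haematopoietic stem cells (HSCs), isolated by flow cytometry as lineage-negative, Kit-positive, Sca1-positive, CD150-positive, CD48-negative cells and divided by CD34. Long-term HSCs (LT-HSCs, CD34-) and short-term HSCs (ST-HSCs, CD34+) were kept for 2 days in Stemline II medium with SCF at 100 ng/ml and Flt3 at 2 ng/ml. Each type was cultured alone (control) or with nicotinamide riboside (NR), a precursor of NAD, at 1 mM, renewed after 24 h, which gave 4 groups of 3 libraries. The labels give no strain, age or genotype of the mice and do not say whether the libraries came from separate animals or sorts, so the p-values measure the spread between these libraries, which may be technical.

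The mitochondrial ribosome translates the messages of the mitochondrial genome, which encode core subunits of the respiratory chain and of ATP synthase. Its 2 ribosomal RNAs are transcribed inside the organelle, while all of its proteins are made from nuclear genes, translated in the cytosol and imported. Some of these proteins have a counterpart in the bacterial ribosome and others exist only in mitochondria. HSCs rely largely on glycolysis while quiescent and raise mitochondrial activity when they enter cycle and differentiate.

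The start regions of 4 genes are printed because the promoters of these genes are rich in a few short motifs, and because they include 3 genes that were lower with NR (Mrpl17, Mrps22 and Mrps11) and 1 that was not called (Mrpl43). They are the 250 bases before the start site, read 5′ to 3′ on the coding strand, from the RefSeq promoter windows of GRCm38.p6. Capitals mark matches, on either strand, to the ETS core (CCGGAAG), the NRF1 core (GCGCNTGCG) or the YY1 motif (AAGATGGCG).
Mrpl17, chr7:105811088-105811337, minus strand: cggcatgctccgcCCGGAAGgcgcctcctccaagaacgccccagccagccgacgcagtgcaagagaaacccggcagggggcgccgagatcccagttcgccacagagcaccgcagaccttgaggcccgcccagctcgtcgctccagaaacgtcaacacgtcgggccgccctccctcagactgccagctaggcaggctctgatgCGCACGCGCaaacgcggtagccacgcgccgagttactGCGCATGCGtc
Mrps22, chr9:98601680-98601929, minus strand: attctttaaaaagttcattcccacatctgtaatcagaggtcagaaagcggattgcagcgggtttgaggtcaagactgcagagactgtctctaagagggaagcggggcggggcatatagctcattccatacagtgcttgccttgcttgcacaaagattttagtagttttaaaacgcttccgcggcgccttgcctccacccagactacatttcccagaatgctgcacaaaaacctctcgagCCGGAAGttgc
Mrps11, chr7:78782881-78783130, plus strand: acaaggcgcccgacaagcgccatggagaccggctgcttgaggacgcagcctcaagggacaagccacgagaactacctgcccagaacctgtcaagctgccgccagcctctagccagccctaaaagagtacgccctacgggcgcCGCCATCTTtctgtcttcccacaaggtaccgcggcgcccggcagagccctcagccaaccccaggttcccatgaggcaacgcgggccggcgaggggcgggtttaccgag
Mrpl43, chr19:45006443-45006692, minus strand: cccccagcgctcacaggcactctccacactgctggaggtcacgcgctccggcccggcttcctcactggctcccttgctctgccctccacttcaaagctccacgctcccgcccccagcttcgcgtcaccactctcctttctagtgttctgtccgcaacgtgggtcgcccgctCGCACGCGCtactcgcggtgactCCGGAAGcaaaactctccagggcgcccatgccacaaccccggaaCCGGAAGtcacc
Mrpl17 and Mrpl43 both carry ETS and NRF1 matches, Mrps22 carries an ETS match close to the start, and Mrps11 a YY1 match on the opposite strand.

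The libraries held 24589718 to 35456821 counts assigned to genes, of which 107972 to 166317 fell on the 78 genes. Reads outside any gene made up 28.5% and 26.2% of the third NR library of LT-HSCs and of ST-HSCs, and at most 17.0% of any other library. Cd34 stood at 230 to 270 CPM in the LT-HSC libraries and at 606 to 740 CPM in the ST-HSC libraries, in the direction of the sort. The genes of the shared sort markers also differed between the types, except Kit, which overlapped. Ly6a (Sca1) stood at 23.2 to 47.6 CPM in LT-HSCs and 5.51 to 10.5 CPM in ST-HSCs. Slamf1 (CD150) stood at 25.1 to 43.5 and 10.3 to 20.2 CPM, and Cd48 at 0.26 to 1.55 and 1.93 to 6.25 CPM. CPM are counts per 1000000 gene counts after TMM scaling, the composition correction of edgeR.

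With NR, the 78 genes together took a smaller share of the gene counts in both cell types. In control LT-HSCs the share was 0.489%, 0.526% and 0.502% in the 3 libraries, and with NR it was 0.430%, 0.465% and 0.439%. In control ST-HSCs it was 0.50%, 0.496% and 0.488%, and with NR 0.466%, 0.461% and 0.442%. Each of the 6 NR libraries lay below each of the 6 control libraries. These are bulk samples, in which a smaller share of some cells and less RNA per cell cannot be told apart.

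Both subunits took smaller shares of the counts with NR. The 49 large subunit genes took 0.336% ± 0.014 (SD, n = 3) of the counts in control LT-HSCs and 0.294% ± 0.011 with NR, and in ST-HSCs 0.327% ± 0.004 and 0.301% ± 0.008. The 29 small subunit genes took 0.170% ± 0.005 in control LT-HSCs and 0.150% ± 0.008 with NR, and in ST-HSCs 0.167% ± 0.002 and 0.156% ± 0.006. Per gene and per kilobase of exon, the mean level of the large subunit was 1.34 ± 0.02 times that of the small subunit in control LT-HSCs, 1.35 ± 0.01 with NR, 1.32 ± 0.01 in control ST-HSCs and 1.31 ± 0.02 with NR. This ratio ran from 1.29 to 1.36 over the 12 libraries and its group means from 1.31 to 1.35, with SDs of 0.01 to 0.02. Its differences between groups were not tested.

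**Figure D1:**
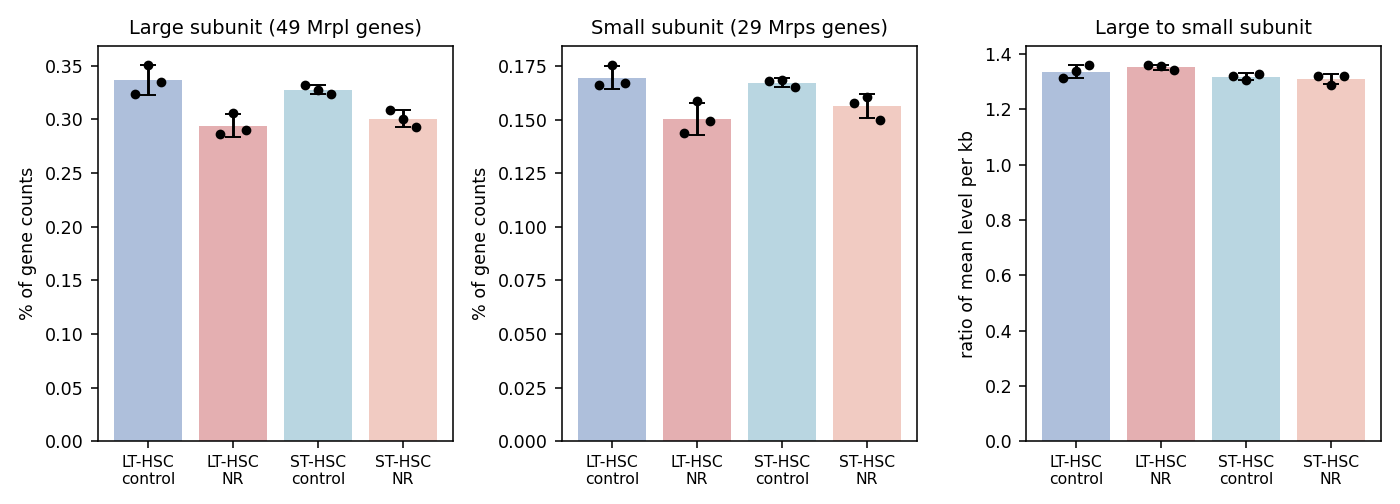
Share of gene counts (%) taken by the large and the small subunit genes, and the ratio of their mean levels per kilobase, in the 4 groups. Bars are group means, error bars the SD and points the 3 libraries of a group. Both shares were lower with NR in both cell types, while the ratio stayed between 1.29 and 1.36.

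The genes were then tested one at a time with edgeR's quasi-likelihood test, fitted over all 19830 genes that passed the filter on low counts, with the Benjamini-Hochberg adjustment over all of them and a threshold of 0.05. Of the 78, 77 passed the filter (48 large and 29 small). The NR effect averaged over both cell types was a fall in 50 of 77 and a rise in none. Among all genes tested 16.1% were lower and 7.88% higher, and among the 10473 genes at a mean of at least 5 CPM, which are closer to these genes in level, 28.6% were lower. The median log2 change was -0.25, a decrease of 16.2%, against -0.07 for the genes at 5 CPM or more, and 75 of 77 values were below 0. By subunit, 32 of 48 large (median -0.26) and 18 of 29 small subunit genes (median -0.25) were lower. Without the 2 libraries rich in reads outside genes, 32 of the 77 were lower, against 10.6% of all genes tested. The median of the 77 was then -0.16, against 0.0091 for genes at 5 CPM or more.

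In LT-HSCs alone, 35 of 77 genes were lower with NR and none was higher, where 7.58% of all genes tested and 14% of those at 5 CPM or more were lower and 2.38% of all genes tested higher. They were 23 of 48 large subunit genes (median log2 change -0.27) and 12 of 29 small subunit genes (-0.29). The median over the 77 was -0.28, against -0.06 for genes at 5 CPM or more. The 3 NR libraries lay below the 3 controls for 51 of the 77 genes, a pattern found in 15.9% of all genes tested and 26.1% of those at 5 CPM or more. The count was smaller in each fit without 1 LT-HSC library, which also has fewer samples. It was 23, 12 and 26 without control replicates 1, 2 and 3, where 5.34%, 4.21% and 5.46% of all genes tested were lower. Without NR replicates 1, 2 and 3 it was 13, 27 and 17, against 4.52%, 4.82% and 4.76%. Without the third NR library of both cell types it was 19, against 4.42%. Under each of the 22 alternative settings tried, 11 genes were lower, among them Mrps28, Mrpl54, Mrpl42, Mrpl12 and Mrps22.

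In ST-HSCs, 25 of 77 genes were lower and none higher, against 11.1% lower and 5.82% higher among all genes tested and 20% lower at 5 CPM or more. They were 17 of 48 large (median -0.23) and 8 of 29 small subunit genes (-0.21), and the median over all 77 was -0.22, against -0.08 at 5 CPM or more. The 3 NR libraries lay below the 3 controls for 52 genes, where 20.9% of all genes tested and 34% of those at 5 CPM or more did so. In both types at once the libraries were apart in this way for 45 of the 77 (29 large, 16 small), against 11.5% of all genes tested and 20.4% at 5 CPM or more. Of the 25 genes lower in ST-HSCs, 22 (88%) were also lower in LT-HSCs, and these are 62.9% of the 35 called there. The count was 5 without NR replicate 3, where 5.09% of all genes tested were lower. Without the third NR library of both types it was 6, against 6.20%. In either case the median over the 77 was -0.10 and that of genes at 5 CPM or more 0.02. The count was 13, 16 and 16 without control replicates 1, 2 and 3, against 7.44%, 8.26% and 7.80% of all genes tested. Without NR replicates 1 and 2 of LT-HSCs, which enter through the shared spread and scaling, it was 12 and 11, against 7.34% and 7.05%. Mrpl42, Mrpl54, Mrps5, Mrps26 and Mrps28 were lower under all 22 alternatives.

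**Figure D2:**
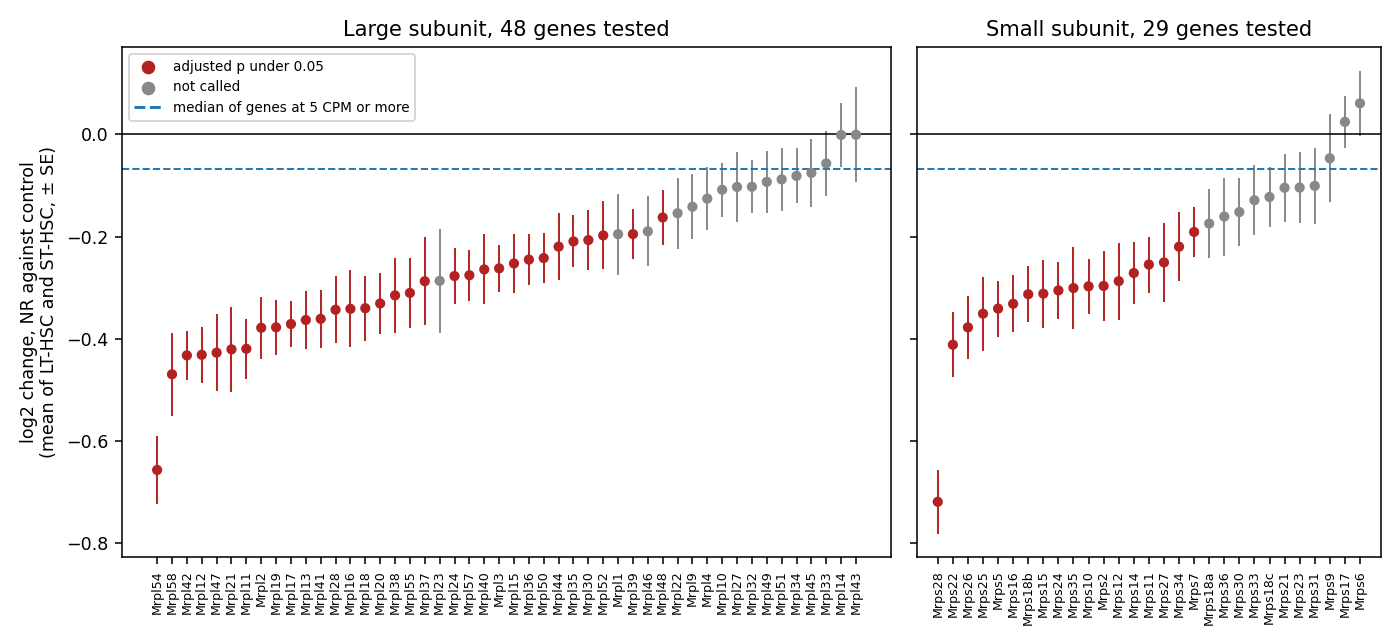
Averaged log2 change with NR for each of the 48 large and 29 small subunit genes tested, in order, with the SE as bars. Red points passed an adjusted p of 0.05 (50 genes, each of them lower), grey points did not, and the dashed line is the median of the genes at 5 CPM or more (-0.07).

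Among small subunit genes the lowest value was that of Mrps28 (ENSMUSG00000040269, chr3:8802146-8923918, minus strand, GRCm38), the mitochondrial counterpart of bacterial protein S1. Mrps28 stood at 55.8, 60.2 and 51.6 CPM in control LT-HSCs and 32.7, 35.3 and 29.6 CPM with NR. In ST-HSCs it stood at 63.9, 61.2 and 60.5 CPM and, with NR, at 42.1, 38.7 and 36.7 CPM. No NR library reached any control library in either type. Its averaged log2 change was -0.72 ± 0.06 (SE, edgeR adjusted p = 5.1e-06), and over 21 alternatives this value ran from -0.75 to -0.62. Mrps22, a protein found only in mitochondrial ribosomes, stood at 36.4, 39.6 and 37.4 CPM in control LT-HSCs and 27.5, 29.8 and 25.5 CPM with NR. In ST-HSCs Mrps22 stood at 42.1, 41.6 and 36.6 CPM and, with NR, at 29.6, 33.4 and 30.02 CPM, so its groups did not overlap in either type (averaged -0.41 ± 0.06, edgeR adjusted p = 0.00041). Mrps26, also specific to mitochondria, fell by 0.38 ± 0.06 on the log2 scale, with control libraries at 85.5 to 97.3 CPM and NR libraries at 65.6 to 82.9 CPM. Mrps5, a protein of the message entry channel, fell by 0.34 ± 0.05. Mrps16, a conserved protein needed for assembly of the small subunit, fell by 0.33 ± 0.06.

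Among large subunit genes, Mrpl54 (ENSMUSG00000034932, chr10:81264713-81266934, minus strand, GRCm38) had the lowest value. It encodes a mitochondria-specific protein. Its 3 control LT-HSC libraries stood at 61.4, 66.0 and 62.2 CPM and the NR libraries at 38.4, 47.4 and 39.0 CPM. In ST-HSCs Mrpl54 stood at 69.1, 64.4 and 64.8 CPM in control culture and at 38.9, 44.6 and 37.7 CPM with NR. The averaged log2 change was -0.66 ± 0.07 (edgeR adjusted p = 1.7e-05), and the highest NR library stayed below the lowest control. Mrpl58, a peptidyl-tRNA hydrolase of the ribosome that releases stalled chains, stood at 33.6 to 41.9 CPM in the 6 control libraries and 23.8 to 29.6 CPM with NR, a fall of 0.47 ± 0.08. Mrpl42, another mitochondria-specific protein, stood at 137 to 153 CPM in controls and 101 to 116 CPM with NR, a fall of 0.43 ± 0.05. Neither gene had an NR library that reached a control library.

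The stalk of the large subunit is where translation factors bind. Mrpl12, the stalk protein itself, stood at 66.7, 76.0 and 66.9 CPM in control LT-HSCs and 48.9, 54.4 and 48.1 CPM with NR. In ST-HSCs Mrpl12 stood at 72.7, 70.0 and 74.3 CPM and, with NR, at 57.3, 55.5 and 52.3 CPM, and the averaged log2 change was -0.43 ± 0.05 (edgeR adjusted p = 9e-05). Mrpl11, at the base of the stalk, fell by 0.42 ± 0.06. Mrpl17, a conserved protein, stood at 148, 162 and 152 CPM in control LT-HSCs and 109, 117 and 107 CPM with NR. In ST-HSCs Mrpl17 stood at 142, 138 and 144 CPM and, with NR, at 124, 118 and 110 CPM, with an averaged log2 change of -0.37 ± 0.05 (edgeR adjusted p = 7.2e-05). Its groups were apart in both types.

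**Figure D3:**
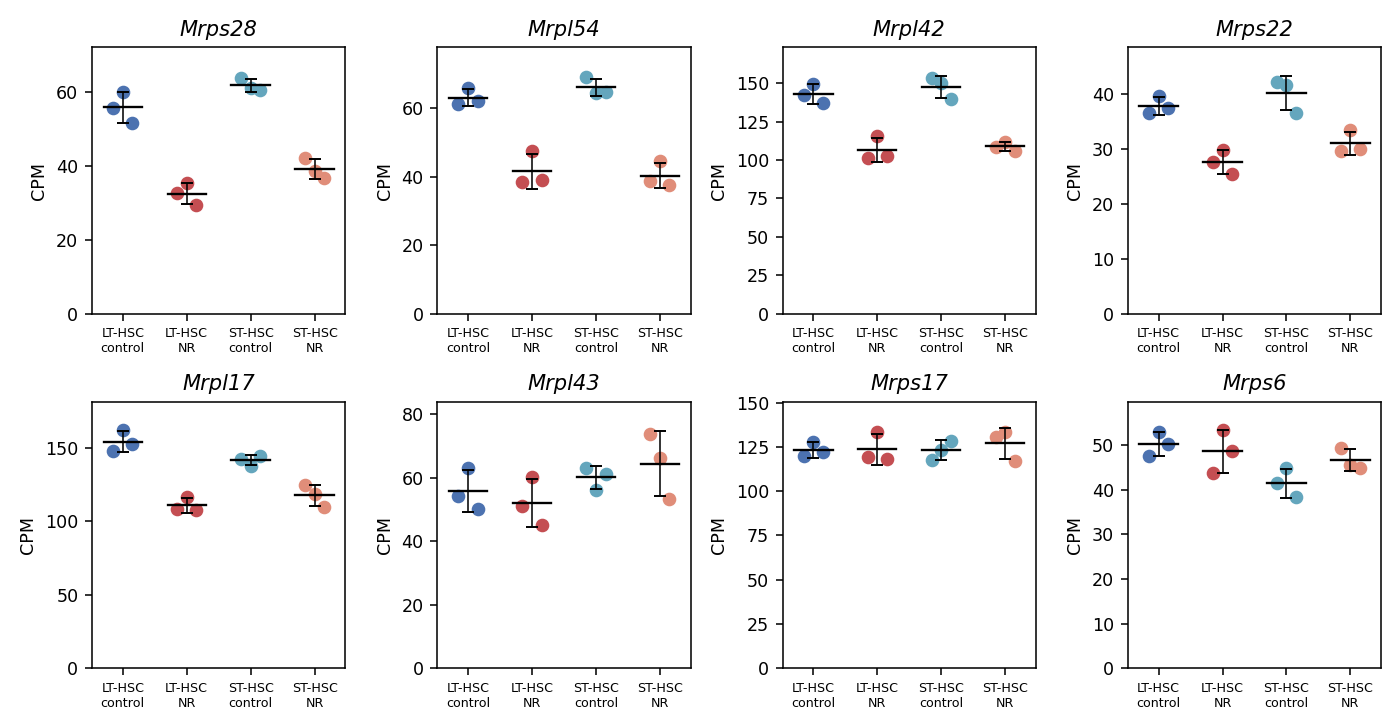
CPM in each library for 5 genes that were lower with NR (Mrps28, Mrpl54, Mrpl42, Mrps22 and Mrpl17) and 3 at the other end of the range (Mrpl43, Mrps17 and Mrps6). Points are libraries, lines the group mean and SD (n = 3), and the axes start at 0. The NR libraries of the first 5 lie below their controls in both cell types, and those of Mrpl43 and Mrps17 overlap them.

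Of the 77 genes, 27 did not pass the test for the averaged effect. The highest averaged values among large subunit genes were those of Mrpl43 (-0.00078 ± 0.09), Mrpl14 (-0.0012 ± 0.06) and Mrpl33 (-0.06 ± 0.06), and none passed the test. Mrpl43 stood at 54.3, 63.2 and 50.2 CPM in control LT-HSCs and 51.0, 60.1 and 45.03 CPM with NR. In ST-HSCs it stood at 63.0, 56.2 and 61.2 CPM and, with NR, at 73.8, 66.3 and 53.4 CPM, so its groups overlapped. Of the exonic bases of Mrpl43, 33.4% also lie in Twnk, the mitochondrial DNA helicase gene, and how reads there were assigned is not given in the sources used here. The signs for Mrpl43, Mrpl14, Mrpl33 and Mrps9 changed with the scaling and with the filter on low counts and in fits without 1 library.

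Among small subunit genes, Mrps6 (0.06 ± 0.06), Mrps17 (0.02 ± 0.05) and Mrps9 (-0.05 ± 0.09), all 3 with bacterial counterparts, had the highest values. Mrps6 was the only one of the 77 whose 3 NR libraries all lay above the 3 controls in a cell type, against 11.9% of all genes tested in ST-HSCs. In ST-HSCs it stood at 41.5, 44.8 and 38.3 CPM in control culture and 49.4, 45.5 and 44.8 CPM with NR, where its lowest NR value and highest control value nearly met. In edgeR's test this gave 0.17 ± 0.09 (adjusted p = 0.27), and it passed in 2 of 22 alternatives, DESeq2 and the filter at 5 CPM. Mrps17 stood at 117 to 129 CPM in the 6 control libraries and 117 to 134 CPM with NR, a full overlap. It passed as higher in 1 of 21 alternatives, the filter at 5 CPM.

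The 3 Mrps18 paralogs are relatives of bacterial protein S18 and occupy different places in the ribosome. Mrps18b, in the small subunit, stood at 25.5 to 28.5 CPM in the control libraries and 20.1 to 23.8 CPM with NR, and fell by 0.31 ± 0.05 (edgeR adjusted p = 0.00096). Mrps18a, which sits in the large subunit despite its name, had a value of -0.17 ± 0.07 (edgeR adjusted p = 0.085), and passed with the replicate number as a block (edgeR adjusted p = 0.021). Mrps18c, at the place of the bacterial protein, had -0.12 ± 0.06 (edgeR adjusted p = 0.18). These 3 differences were not tested against each other.

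Some names do not match the structure: Mrps18a and Mrps30 belong to the large subunit, and Mrps36 is now known as a component of the 2-oxoglutarate dehydrogenase complex. Sorted by structure, a grouping made after the values were seen, 32 of 50 large and 18 of 26 small subunit genes were lower, with medians of -0.25 and -0.28. The genes were also divided into those with a bacterial counterpart and those specific to mitochondria. In the large subunit 18 of 29 conserved (median -0.26) and 14 of 21 mitochondria-specific genes (-0.22) were lower, and in the small subunit 11 of 16 (-0.28) and 7 of 10 (-0.28). The median of the large subunit minus that of the small was -0.0026 by name and 0.03 by structure, so neither subunit was lower under both groupings.

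A difference of the NR effect between LT-HSCs and ST-HSCs was called for none of the 77 genes by edgeR (0 also by DESeq2 and by limma-voom), where 0.0101% of all genes tested were called. The estimated differences, ST-HSC minus LT-HSC, ran from -0.22 to 0.27 on the log2 scale. One of the 77 had an unadjusted p under 0.05. This was Mrpl17, whose log2 change was -0.47 in LT-HSCs and -0.27 in ST-HSCs, a difference of 0.21 ± 0.09 (edgeR adjusted p = 0.80). Mrpl47 (-0.56 and -0.29) and Mrps18b (-0.41 and -0.22) had the next smallest p values, both with an adjusted p of 0.96 in edgeR. The median difference over the 77 was 0.07, toward a smaller fall in ST-HSCs, and over genes at 5 CPM or more it was 0.0031.

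**Figure D4:**
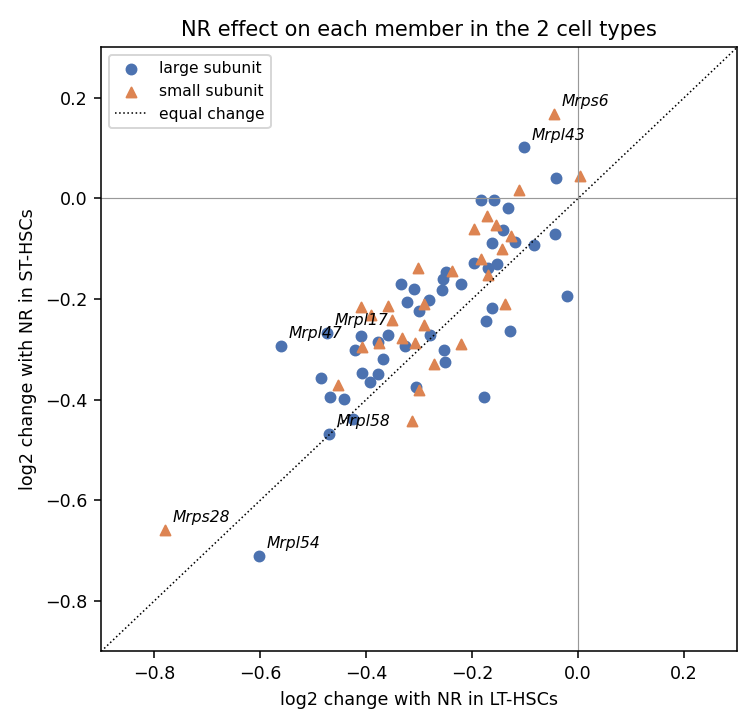
Log2 change with NR in LT-HSCs (horizontal) against ST-HSCs (vertical) for the 77 genes tested, by subunit, with the line of equal change. Mrps28 and Mrpl54 are lowest on both axes, and no gene passed the test of the difference between the cell types.

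In control culture none of the 77 was called different between LT-HSCs and ST-HSCs by edgeR (2 at an unadjusted p under 0.05), where 5.01% of all genes tested were, and the log2 differences, LT over ST, ran from -0.16 to 0.29 with a median of -0.02. The 2 were Mrpl52 (0.29 ± 0.09, edgeR adjusted p = 0.11) and Mrps6 (0.28 ± 0.09, edgeR adjusted p = 0.12), which were higher in LT-HSCs in 5 and 4 of the 22 alternatives, DESeq2 and limma-voom among them. Mrps5, Mrpl17 and Mrpl9 followed, with -0.15 ± 0.08, 0.12 ± 0.06 and -0.16 ± 0.09. With NR, 0 of 77 were called (5 at an unadjusted p under 0.05), against 6.07% of all genes tested, with a median of -0.06. Mrps28 (-0.27 ± 0.09, edgeR adjusted p = 0.11), Mrpl36 (-0.19 ± 0.07, 0.16), Mrpl43 (-0.31 ± 0.13), Mrps18b (-0.18 ± 0.08) and Mrpl16 (-0.25 ± 0.11) had the smallest p values, all toward a lower level in LT-HSCs. Mrps28 passed in 4 of the 22 alternatives and 2 genes passed with DESeq2.

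The genes differed widely in level. Per kilobase of exon, the median of the 78 was 23.8 CPM per kb, 26.5 for the large and 18.7 for the small subunit. The highest were Mrpl34 (105 CPM per kb), Mrpl28 (88.2) and Mrpl36 (81.5) in the large subunit, and Mrps12 (60.8), a protein of the decoding centre, Mrps28 (60.5) and Mrps24 (47.9) in the small subunit. The lowest of the small subunit were Mrps35 (5.59) and Mrps10 (6.39). In the large subunit Mrpl23, a protein of the exit tunnel, stood at 2.01 CPM per kb and Mrpl53 at 0.091. Length here is the union of all annotated exons in GENCODE M21, which lowers the value of genes with long alternative exons.

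Mrpl53 (chr6:83109040-83109939, plus strand, GRCm38) was the 1 gene below the filter, with 26 counts over all 12 libraries, at most 4 in any and 0 in 2. Of its exonic bases 88.0% also lie in the annotated gene Gm42688, which had a mean of 2.72 CPM. Reads that overlap both genes cannot be told apart by gene, so the low count of Mrpl53 is uncertain. In all, 18 of the 78 share over 10% of their exonic bases with another gene, and whether counting used strand is not given in the sources used here.

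Other genes of mitochondrial translation were counted from lists of known members. All 5 proteins of the mitochondrial ribosome that carry other symbols were lower with NR on average (median -0.34): Chchd1 fell by 0.37 ± 0.06, Ptcd3 by 0.35 ± 0.06, Gadd45gip1 by 0.34 ± 0.07, Aurkaip1 by 0.30 ± 0.06 and Dap3 by 0.17 ± 0.05. The fall of Dap3 did not pass in 11 of 21 alternatives, and the other 4 passed in all of them. Of 15 translation factors and regulators tested, 10 were lower and none higher (median -0.29). Among them Tufm, the elongation factor that brings charged tRNA, fell by 0.41 ± 0.05, Gfm1, the factor for translocation, by 0.38 ± 0.05, and Lrpprc, which stabilises mitochondrial messages, by 0.55 ± 0.05. Of 17 mitochondrial aminoacyl-tRNA synthetases, which charge the tRNAs, 11 were lower and none higher (median -0.29), with Sars2 at -0.52 ± 0.07, Iars2 at -0.43 ± 0.05 and Tars2 at -0.42 ± 0.06.

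Genes for assembly of the ribosome and modification of its RNA were near the background of 28.6% for genes at 5 CPM or more: 8 of 27 were lower and 1 higher (median -0.14). Trub2, a pseudouridine synthase, fell by 0.44 ± 0.05, Rcc1l by 0.44 ± 0.08 and Mtg1, an assembly GTPase, by 0.38 ± 0.06, while Mpv17l2 rose by 0.20 ± 0.06 (edgeR adjusted p = 0.037), which did not pass in 8 of 21 alternatives, each without 1 library. Of 15 genes of mitochondrial transcription and its nuclear control, 5 were lower and 1 higher. Ppargc1b, a coactivator of mitochondrial genes, fell by 0.77 ± 0.09, the growth regulator Myc by 0.33 ± 0.05, Pprc1, another coactivator, by 0.32 ± 0.06 and Tfam, which packages and transcribes mitochondrial DNA, by 0.16 ± 0.05, a call that Tfam lost in 15 of 21 alternatives. Yy1 rose by 0.28 ± 0.06 (edgeR adjusted p = 0.0026), and Nrf1 had -0.14 ± 0.05 (0.067) and Polrmt, the mitochondrial RNA polymerase, 0.06 ± 0.05. Of the 80 cytosolic ribosomal protein genes tested, 68 were lower and none higher (median -0.27).

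The 2 RNAs that these proteins assemble on are read from the mitochondrial genome. The 12S RNA (mt-Rnr1) of the small subunit had a log2 change of -0.12 in LT-HSCs (edgeR adjusted p = 0.77) and rose by 0.71 ± 0.19 in ST-HSCs (0.018), a rise that did not pass without control replicate 1, control replicate 3 or NR replicate 1 of ST-HSCs. The 16S RNA (mt-Rnr2) of the large subunit had -0.16 in LT-HSCs (0.43) and rose by 0.51 ± 0.10 in ST-HSCs (0.0041). The difference between the cell types did not pass the test for either (0.58 and 0.26). How far these counts, from libraries amplified with SMART-Seq v4, follow the amount of ribosomal RNA was not tested. Of the 15 mitochondrially encoded genes tested, 7 were lower on average and none higher, among them mt-Nd1 (-0.42 ± 0.05), mt-Nd5 (-0.33 ± 0.05) and mt-Nd2 (-0.31 ± 0.05), subunits of complex I.

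Many mammalian genes share their start region with a neighbour read in the opposite direction. A divergent neighbour is a protein-coding gene on the other strand whose start lies within 1000 bases, or overlaps by up to 500. Of the 78 genes, 26 (33.3%, 18 large and 8 small) had one, against 2067 of the 21071 coding genes with any count (9.81%). That background was not matched for level. Mrps11 and Mrpl46 are each other's neighbour. The RefSeq start of Mrpl46 lies within the printed stretch of Mrps11, while the GENCODE start of Mrpl46, at base 78783531, lies outside it. With NR 19 of the 26 were lower, with a median of -0.25. Of their 26 neighbours 6 were lower and 2 higher, with a median of -0.09, near the shares over all genes (16.1% lower, or 28.6% at 5 CPM or more, and 7.88% higher).

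Pairs differed in whether both genes passed the test. Both genes were lower in Mrpl13 and Mtbp (-0.39 for Mtbp), Mrpl36 and the complex I gene Ndufs6 (-0.38), Mrpl37 and Cyb5rl (-0.72), and Mrps12 and Sars2 (-0.52). The calls of Mrpl37 and Mrpl44 did not pass in 10 of 21 alternatives each. The neighbour was higher where the ribosomal gene was lower in 2 pairs, Mrpl2 with Klc4 (0.29 ± 0.07) and Mrpl44 with Wdfy1 (0.32 ± 0.06). Apba3, whose start lies 26 bases from that of Mrpl54, had -0.10 ± 0.09 (edgeR adjusted p = 0.53), against -0.66 for Mrpl54. Mrps11 was lower (-0.25 ± 0.05, edgeR adjusted p = 0.0039) and Mrpl46 had -0.19 ± 0.07 (0.063). Mrpl46 passed in 2 of 21 alternatives, with the replicate block and without control replicate 1 of LT-HSCs. Mrps11 stood at 36.8 to 40.5 CPM in controls and 29.5 to 34.0 CPM with NR.

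**Figure D5:**
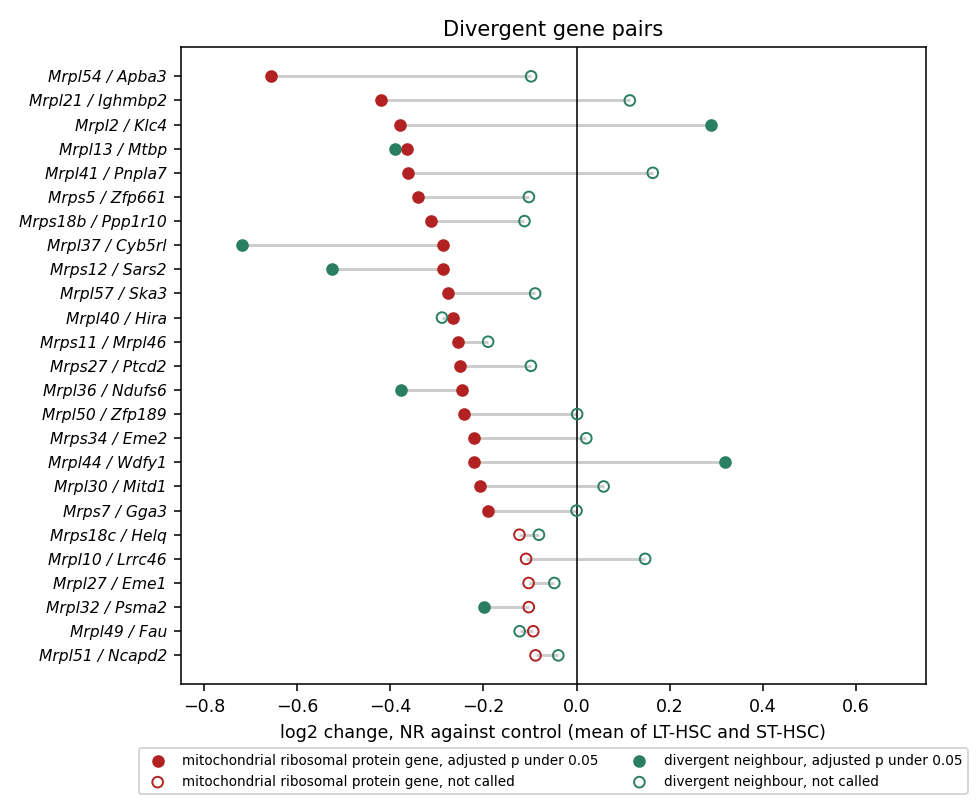
Averaged log2 change with NR for each of the 26 genes with a divergent neighbour (red) and for that neighbour (green), with Mrps11 and Mrpl46 drawn once as a pair. Filled points passed an adjusted p of 0.05. In 4 pairs both genes were lower, and in 2 the neighbour is higher.

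RefSeq promoter windows of 300 bases, 250 before to 50 after the start, were matched for 69 of the 78 genes by symbol and for 27025 genes in all, and searched on both strands. The YY1 motif AAGATGGCG was in 8 of the 69 (11.6%), against 1.64% of all genes and 4.19% of those at 5 CPM or more. The ETS core CCGGAAG was in 26 (37.7%, against 9.93% and 22.6%), and the NRF1 core GCGCNTGCG, whose matches can overlap each other on the 2 strands, in 18 (26.1%, against 7.12% and 17.0%). The E-box CACGTG was in 5 (7.25%, against 8.09% and 12.4%) and the ATF4 element TGATGNAAT in none (against 1.08% and 0.492%). None of the 5 was found in 24 of the 69.

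Matches were counted beside the averaged NR effect, with no test. The ETS core was in 14 of 42 windows of genes lower with NR and in 11 of 26 of those not called. The NRF1 core was in 9 and 9, the YY1 motif in 7 and 1, and the E-box in 4 and 1. Of the 4 start regions printed, Mrpl17 (-0.37) and Mrpl43 (-0.00078) both have an ETS and an NRF1 match, Mrps22 (-0.41) has an ETS match, and Mrps11 (-0.25) has a YY1 match. A match describes the letters and is no evidence of binding.

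Markers of HSCs and of other cell types also differed with NR, and their part in the falls was not tested. The summed level of 6 megakaryocyte and platelet genes was 3024 to 3455 CPM in control LT-HSCs and 1845 to 2510 CPM with NR, and 2951 to 3255 and 1696 to 2220 CPM in ST-HSCs, with 3 and 4 of the 6 lower and none at 0. The summed level of 6 erythroid genes was 92.4 to 98.0 CPM in control LT-HSCs and 67.6 to 76.3 CPM with NR, and 50.04 to 60.2 and 34.4 to 39.9 CPM in ST-HSCs, so the groups did not overlap. Of the 4 erythroid genes tested, 1 was lower in each type, Epor, the erythropoietin receptor, while the globin genes Hba-a1 and Hba-a2 were under 1 CPM throughout. The sum of 5 HSC genes was 1631 to 1671 CPM in control LT-HSCs and 1715 to 1977 CPM with NR, with none called, and 1107 to 1131 and 1089 to 1184 CPM in ST-HSCs, where Hlf, Procr and Fgd5 were higher. Of the 5 sort marker genes, Slamf1 was lower with NR in ST-HSCs, and none was called in LT-HSCs. The 6 monocyte and macrophage genes summed to 11.2 to 14.4 and 18.1 to 22.3 CPM in LT-HSCs, and 8.80 to 11.4 and 22.3 to 40.9 CPM in ST-HSCs, with Ly86 under 1 CPM. In each type Cd68 was higher, no other gene of the 6 was called, and Cd68 had the highest level of the 6 in every library. Cd68 stood at 8.09 to 10.9 CPM in control LT-HSCs and 15.3 to 18.5 CPM with NR. In ST-HSCs it stood at 5.03 to 5.97 and 18.1 to 33.9 CPM. Neutrophil and mast cell sums overlapped between control and NR, and 6 lymphoid genes summed to at most 4.77 CPM, with 5 of them under 1 CPM throughout. Reads outside genes were most frequent in the third NR libraries, and NR replicate 1 of LT-HSCs, at 9.41% of such reads, had the lowest share for the mitochondrial ribosomal genes (0.430%). The third NR libraries had the next lowest shares, 0.439% in LT-HSCs and 0.442% in ST-HSCs.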

How the data were processed

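The data are RNA-seq of 12 libraries, 3 in each of 4 groups. RNA was extracted with a column kit and 2.5 ng per sample was amplified with SMART-Seq v4 and made into Nextera XT libraries, per the labels' protocols. The deposited values are raw counts per gene. FastQC 0.11.2, STAR 2.5.0b and HTSeq 0.6.1 are named in the submitters' processing notes. Build, annotation and strand setting were not given in the sources used here. Reads in no gene (8.69% to 28.5% of a library) and ambiguous reads (3.30% to 4.38%) stayed out of library sizes and tests. The members and gene lists were chosen with earlier results of these data known.

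Counts were fitted with edgeR 4.0.16 (R 4.3.3, limma 3.58.1): TMM factors, filterByExpr (minimum count 10), 4 group means over all 12 libraries, the quasi-likelihood test (two-sided, 8 residual degrees of freedom), and the Benjamini-Hochberg adjustment over 19830 genes. Genes named were, in each subunit, the 5 with the smallest p and the 3 lowest and 3 highest averaged NR changes, those highest and lowest per kilobase, the smallest p values for the other comparisons, and the Mrps18 paralogs. Subunit classes by structure, and which neighbours and list genes to name, were chosen after the values were seen. Exon lengths and neighbours came from GENCODE M21, in which all 78 gene identifiers were found.

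Replicates of 1 group differed by more than sampling noise (chi-square per degree of freedom 5.46 to 32.3). Replicate numbers come from the sample titles. Deviations from the group means of same-numbered libraries correlated at 0.51, 0.25 and 0.71 for control and NR in LT-HSCs. For the NR cultures of the 2 types the correlations were 0.74, 0.15 and 0.84. For control and NR in ST-HSCs they were 0.67, -0.06 and 0.55, and between the controls 0.42, -0.23 and 0.43. Replicate 2 matched a library of another number best in each comparison, and replicate 3 did so between the controls. Whether equal numbers mark paired libraries is therefore not settled. The reported values come from the fit without the replicate block, and the block is an alternative. Alternatives were other scalings, DESeq2 1.42.0, limma-voom, other filters, the replicate block, only the groups compared, the share of reads in no gene as a covariate, and leaving out libraries. One gene of the erythroid marker list is not reported here.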

Additional observations from a re-analysis of the deposited data

How the results depend on the processing

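Under the alternatives the median log2 change of the 77 genes minus that of genes at 5 CPM or more stayed between -0.25 and -0.19 in LT-HSCs, -0.17 and -0.12 in ST-HSCs and -0.21 and -0.17 on average, and 32 genes were lower on average under all 21. The median itself moved in ST-HSCs from -0.22 to between -0.15 and -0.14 with relative log expression factors, DESeq2, no filter and the filter at 5 CPM. Under the same settings it moved in LT-HSCs from -0.28 to between -0.23 and -0.21. The averaged median moved from -0.25 to between -0.19 and -0.18. The counts moved more. With no filter on low counts 22 genes were lower in LT-HSCs and 11 in ST-HSCs, against 2.04% and 2.85% of all genes tested. Without the 2 libraries rich in reads outside genes the counts were 19 and 6, and 32 on average. The shares of all genes tested that were lower were then 4.42%, 6.20% and 10.6%. Leaving out each library in turn gave 12 to 32 in LT-HSCs, 5 to 31 in ST-HSCs and 36 to 49 on average. In those fits 4.21% to 7.59%, 5.09% to 12.2% and 10.9% to 15.9% of all genes tested were lower. With the replicate block the counts were 40, 36 and 51, against 9.57%, 13.4% and 17.9% of all genes tested. Among the mitochondrial ribosomal genes named for the averaged effect, the block changed the calls of Mrps18a and Mrpl46, both then lower. One gene was higher in ST-HSCs with DESeq2 and with the filter at 5 CPM (1 each), and 1 on average with that filter. Between LT-HSCs and ST-HSCs in control culture, 2 genes were called with DESeq2, 2 with limma-voom, 1 with no filter, 2 with the filter at 5 CPM and 2 with only the groups compared. With NR, 2 were called with upper-quartile factors, 2 with DESeq2, 3 with the filter at 5 CPM and 3 with the covariate. The cause was not tested. The large minus small difference by gene name was -0.0134 to 0.0300 leaving out single libraries. Sorted by structure, with all libraries, it was 0.0304.

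The averaged log2 changes of Mrpl43, Mrpl14, Mrpl33 and Mrps9 turned positive, none past the threshold. With relative log expression factors they were 0.0622, 0.0624, 0.0064 and 0.0161, and with DESeq2 0.0620, 0.0625, 0.0065 and 0.0160. With no filter they were 0.0590, 0.0598, 0.0033 and 0.0133, and with the filter at 5 CPM 0.0693, 0.0711, 0.0151 and 0.0232. Without the 2 libraries they were 0.152, 0.0747, 0.0371 and 0.0964. Upper-quartile factors gave 0.0528 for Mrpl43, 0.0550 for Mrpl14 and 0.0068 for Mrps9. The covariate gave 0.0424 for Mrpl43 and 0.0040 for Mrpl14, and limma-voom 0.0236 for Mrpl43. Leaving out single libraries, Mrpl43 ran from -0.0548 to 0.105, Mrpl14 from -0.0240 to 0.0686, Mrpl33 from -0.0888 to 0.0147 and Mrps9 from -0.0913 to 0.0661.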
